A study of Mus musculus with 16 samples.

Results

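The neuron navigators are the genes Nav1, Nav2 and Nav3, taken as the 3 rows of the deposited table that carry these symbols, of 36930 rows in all. All 3 had a value in every pup and were among the 21183 genes that passed the filter on low values. The table comes from RNA sequencing of brain cortex of 16 C57BL6 mouse pups at postnatal day 7, with libraries made by an mRNA kit. The comparison is between 8 Avil-ChR2 and 8 ChR2-flfl pups. Both genotypes carry the floxed channelrhodopsin-2 (ChR2) and tdTomato fusion construct, a light-gated cation channel behind a STOP sequence, and both were put under blue light for 1 h daily on days 1 to 5. Avil-ChR2 pups carry in addition a Cre recombinase under the advillin (Avil) promoter, which removes the STOP sequence predominantly in peripheral sensory neurons and so makes nociceptors respond to the light, whereas ChR2-flfl pups are the Cre-negative controls. The labels list 4 males and 4 females among the ChR2-flfl pups and 3 males and 5 females among the Avil-ChR2 pups. Pup numbers fell into 2 runs, 26 to 33 and 35 to 42, each with 4 pups of each genotype, and the labels do not say what the runs were or which pups shared a litter. P-values below therefore measure the spread between these pups.

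Navigators are large cytoskeletal proteins of developing neurons, related to a worm gene that steers migrating cells and axons. They bind microtubules, ride on growing plus ends and link microtubules to actin remodelling in growth cones and neurites. Nav1 binds Trio, an exchange factor for small GTPases, at the growth cone, Nav2 was found as a gene induced by retinoic acid and is needed for neurite outgrowth, and Nav3 is a predominantly neural member that also tracks plus ends. The symbols are easily mistaken for protein names of voltage-gated sodium channels, whose genes carry symbols that begin with Scn. Nav1 and Nav2 entered through the study's list of regulated genes, which was selected on P-values, fold changes and abundance in these same pups, and Nav3 was added as the remaining member. The genotype contrast is therefore given for the navigators as a description, without a test.

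In the deposited coordinates (mm10, GRCm38) Nav1 lies on the minus strand of chromosome 1 from 135434580 to 135688116, Nav2 on the plus strand of chromosome 7 from 48959066 to 49610088, and Nav3 on the minus strand of chromosome 10 from 109681573 to 110000391. Nav3 shares its chromosome with Avil, the gene whose promoter drives Cre, at a distance of 16999684 bases. The paper does not say where the Cre is inserted, so whether Nav3 is linked to it is not known. The ranges of 4 other entries overlap Nav1, namely Mir1231, Gm32940, LOC105246713 and Gm4793, and those of 3 overlap Nav2, namely Gm32849, LOC105242941 and Gm32694. None of these 7 had a value in any pup. Across the table only 5.54% of 5844 entries nested in another entry had a value, so that the empty cells of the 7 entries do not show that they were silent. No entry overlapped Nav3.

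Because Nav1 and Nav2 moved together across pups (below), the 250 bases before their annotated starts are shown, from the RefSeq promoter table (GRCm38.p6), which held 1 window for Nav1 and 2 for Nav2. They are written 5′ to 3′ on the strand of the gene, with capitals for GC boxes (GGGCGG or CCGCCC) and CCAAT boxes (CCAAT or ATTGG). Each start lies inside the deposited range of its gene, and the Nav1 window also lies in the range of Gm4793 on the other strand. The windows are chr1:135585356-135585605 (minus strand) for Nav1, chr7:48958823-48959072 (plus strand) for the first start of Nav2 and chr7:49245939-49246188 (plus strand) for the second.
Nav1: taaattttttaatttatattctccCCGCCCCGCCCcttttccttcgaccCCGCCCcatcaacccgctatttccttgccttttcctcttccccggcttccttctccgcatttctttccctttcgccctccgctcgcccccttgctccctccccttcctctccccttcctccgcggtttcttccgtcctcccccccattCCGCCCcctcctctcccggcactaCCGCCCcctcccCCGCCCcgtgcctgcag
Nav2 first start: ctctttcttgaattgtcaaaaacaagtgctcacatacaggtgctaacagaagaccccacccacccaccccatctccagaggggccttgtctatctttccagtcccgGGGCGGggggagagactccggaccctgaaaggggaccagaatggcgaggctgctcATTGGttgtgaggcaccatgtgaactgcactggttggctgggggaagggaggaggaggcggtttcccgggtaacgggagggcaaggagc
Nav2 second start: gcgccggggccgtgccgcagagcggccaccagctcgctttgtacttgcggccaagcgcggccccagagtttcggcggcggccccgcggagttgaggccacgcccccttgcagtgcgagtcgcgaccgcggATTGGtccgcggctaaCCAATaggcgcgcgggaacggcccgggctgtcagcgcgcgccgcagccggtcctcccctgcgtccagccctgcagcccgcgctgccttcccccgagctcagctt
The Nav1 window held 6 GC boxes, overlapping matches counted, and no CCAAT box. The first Nav2 window held 1 GC box and 1 CCAAT box, whereas the second held no GC box and 2 CCAAT boxes. GC boxes were found in 32.7% and CCAAT boxes in 33.8% of all 32851 windows of the same length, read on both strands. The GC content was 62.4% for Nav1, 58.8% for the first and 74.4% for the second Nav2 window, against a median of 52.4% over all windows. These values stood at percentiles 77.5, 68.9 and 95.4 of all windows. The E box CACGTG (6.02% of all windows) and the cAMP response element TGACGTCA (1.55%) were in none of the 3, and a TATA box (TATAAA or TTTATA, 12.4%) was matched once, in the Nav1 window. Hence, the windows of Nav1 and Nav2 were above the median in GC content to differing degrees, and no motif searched was present in all 3. These matches are a description of letters and not of binding.

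Per kb of its longest annotated transcript, Nav1 was the most abundant navigator in P7 cortex. In ChR2-flfl pups its level was 59.5 ± 7.07 CPM per kb (SD, n = 8), that of Nav3 was 25.5 ± 1.26 and that of Nav2 was 15.3 ± 2.65. In Avil-ChR2 pups the levels were 53.6 ± 2.81, 24.8 ± 0.747 and 13.2 ± 0.867 CPM per kb, respectively. The order Nav1 over Nav3 over Nav2 held in all 16 pups. Nav1 exceeded Nav3 by a factor of 2.02 to 2.74 and Nav3 exceeded Nav2 by a factor of 1.25 to 2.14 within single pups. On this scale Nav1 stood at percentile 94.7, Nav3 at 85.3 and Nav2 at 74.3 of 17474 genes with a transcript length. The longest transcripts used have 13117 bases in 30 exons for Nav1, 11317 bases in 38 exons for Nav2 and 9962 bases in 39 exons for Nav3, so that all 3 are long mRNAs against a median of 3464 bases over expressed genes. Nav1 made up 58.9% ± 0.859 (SD, n = 16) of the summed navigator level per kb, Nav3 26.3% ± 1.55 and Nav2 14.8% ± 0.930. Between 4505 and 11608 reads stood behind each value of Nav2, so counting error is small beside the spread between pups.

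Nav1 ranged in ChR2-flfl pups from 637 to 946 CPM with a median of 776, and in Avil-ChR2 pups from 652 to 743 CPM with a median of 706. The control mean of 781 ± 92.7 and the Avil-ChR2 mean of 703 ± 36.9 (SD, n = 8 each) gave a log2 difference of -0.14 (SE 0.058), or -9.51%. The groups overlapped, with 5 ChR2-flfl pups above the highest Avil-ChR2 pup and no Avil-ChR2 pup below the lowest ChR2-flfl pup, while the control mean exceeded the values of all 8 Avil-ChR2 pups. Nav2 ranged in ChR2-flfl pups from 146 to 239 CPM with a median of 165, and in Avil-ChR2 pups from 131 to 164 CPM with a median of 149. Its mean was 173 ± 30.0 (SD, n = 8) against 149 ± 9.81 (SD, n = 8), a log2 difference of -0.20 (SE 0.076), or -13.1%. Here 4 ChR2-flfl pups were above all Avil-ChR2 pups and 2 Avil-ChR2 pups were below all ChR2-flfl pups. Nav3 ranged in ChR2-flfl pups from 228 to 267 CPM with a median of 256, and in Avil-ChR2 pups from 240 to 262 CPM with a median of 244. Its means of 254 ± 12.6 and 247 ± 7.44 (SD, n = 8 each) differed by a log2 value of -0.039 (SE 0.030), and 3 ChR2-flfl pups were above all Avil-ChR2 pups. In cortex as a whole, fewer cells that use a gene and less of its mRNA per cell cannot be told apart.

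**Figure D1:**
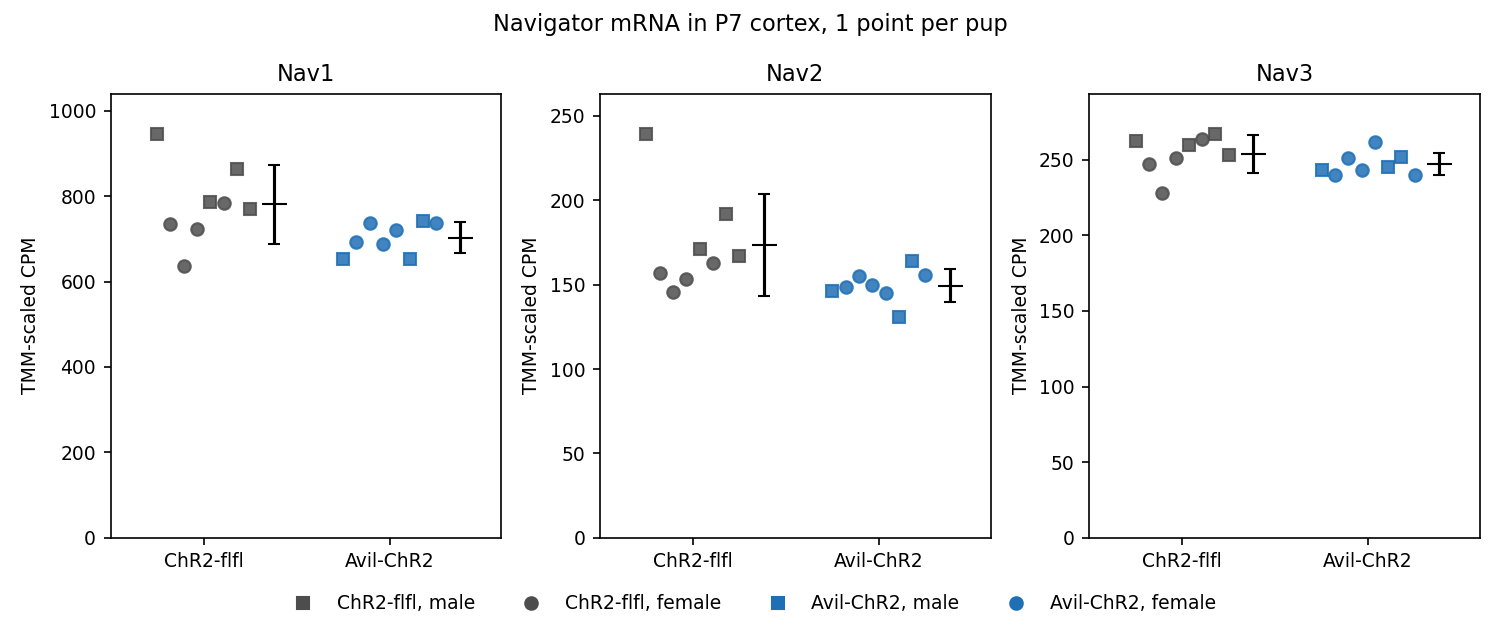
TMM-scaled CPM of Nav1, Nav2 and Nav3 (vertical axes from 0), with 1 point per pup, squares for males, circles for females, grey for ChR2-flfl and blue for Avil-ChR2; the bar beside each group is the mean ± SD of 8 pups. The ChR2-flfl pups spread more widely than the Avil-ChR2 pups, and a single ChR2-flfl male stands at 946 CPM for Nav1 and 239 CPM for Nav2.

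The spread was wider in the controls. The coefficient of variation in ChR2-flfl pups was 11.9% for Nav1, 17.3% for Nav2 and 4.94% for Nav3, against 5.25%, 6.57% and 3.01% in Avil-ChR2 pups. ChR2-flfl replicate 1, a male, had the highest Nav1 and Nav2 values of all pups. Without this pup the coefficient of variation in ChR2-flfl pups was 9.20% for Nav1, 9.13% for Nav2 and 5.17% for Nav3. ChR2-flfl replicate 3, a female, had the lowest Nav1 and Nav3 values and also the fewest reads of the series, with 30549126 against 47791532 to 48711134 in the other pups. Without ChR2-flfl replicate 1 the log2 differences were -0.10 for Nav1 and -0.13 for Nav2. Without ChR2-flfl replicate 3 they were -0.18 for Nav1, -0.24 for Nav2 and -0.061 for Nav3.

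Across all genes limma called 2 genes between the genotypes at an adjusted p under 0.05, which is 0.00944% of 21183 genes and includes no navigator. At an unadjusted p under 0.05 the share was 5.41%, and Nav1 and Nav2 were among these genes, from which nothing is read because the contrast served to choose them. Avil ranged from 0.825 to 1.46 CPM in ChR2-flfl pups and from 37.3 to 46.4 CPM in Avil-ChR2 pups (limma adjusted p = 4.17e-19). This mRNA in cortex separates the genotypes, and it does not show where Cre acted. The median log2 difference over all genes tested was 0.0020.

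Transcript length moved with the genotype difference, which is given as a description without a test. Among genes with a mean log2 CPM of at least 0, the median log2 difference between Avil-ChR2 and ChR2-flfl pups was 0.020 for 2702 genes with a longest transcript under 2 kb, 0.00084 for 3366 genes of 4 to 6 kb, -0.040 for 495 genes of 8 to 10 kb and -0.083 for 379 genes of 10 kb or more, the navigators left out. The share of genes that were lower in Avil-ChR2 pups went from 34.7% in the shortest to 89.2% in the longest class. Nav1 and Nav2 belong to the longest class and lay below its median, whereas Nav3 belongs to the class of 8 to 10 kb and lay at its median.

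**Figure D2:**
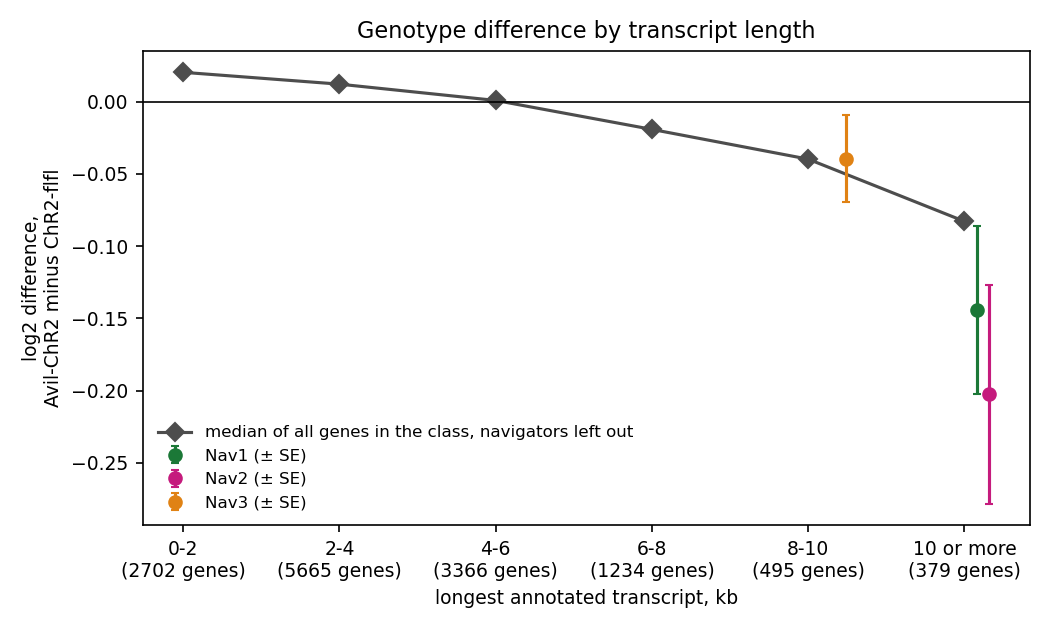
Log2 difference between Avil-ChR2 and ChR2-flfl pups (vertical axis) by class of longest annotated transcript in kb (horizontal axis). Diamonds are medians over all genes of a class, and the coloured points are the 3 navigators with the SE of the limma fit. The class median falls from 0.020 under 2 kb to -0.083 at 10 kb or more, with Nav1 at -0.14, Nav2 at -0.20 and Nav3 at -0.039.

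A long-transcript level was then computed for each pup, the median of gene-centred log2 values over the 379 genes of 10 kb or more. It averaged 0.042 ± 0.073 in the controls and -0.042 ± 0.020 in the Avil-ChR2 pups (SD, n = 8 each), and 6 ChR2-flfl pups were above every Avil-ChR2 pup. Within genotypes Nav1 followed this level with Pearson's r = 0.87 and a Spearman coefficient of 0.71 over 16 pups (permutation p = 0.0005 and 0.00369, adjusted over 3 genes 0.0015 and 0.0111). For Nav3 r was 0.76 and the Spearman coefficient 0.61 (permutation p = 0.00192 and 0.0156, adjusted 0.00288 and 0.0234). For Nav2 r was 0.75, whereas the Spearman coefficient was 0.49 and did not pass (permutation p = 0.00726 and 0.083, adjusted 0.00726 and 0.083). The level summarizes genes of the same length class as Nav1 and Nav2. How many other long genes follow it was not computed, so nothing particular to the navigators is read from these p-values. Without the pups at both ends, ChR2-flfl replicates 1 and 3, r was 0.66, 0.44 and 0.59 for Nav1, Nav2 and Nav3. It was 0.93, 0.87 and 0.89 among pups 26 to 33, and 0.62, 0.40 and 0.48 among pups 35 to 42. With the level as a covariate, an alternative chosen after seeing the data, the genotype difference was 0.035 (SE 0.042) for Nav1, -0.00039 (SE 0.069) for Nav2 and 0.032 (SE 0.030) for Nav3. The level itself differed between the genotypes by -0.083. With another length measure as the covariate, the slope of each pup's gene-centred log2 values on genomic gene length (also chosen after seeing the data), the genotype difference was -0.092 for Nav1, -0.16 for Nav2 and -0.0057 for Nav3. What sets that level was not tested.

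**Figure D3:**
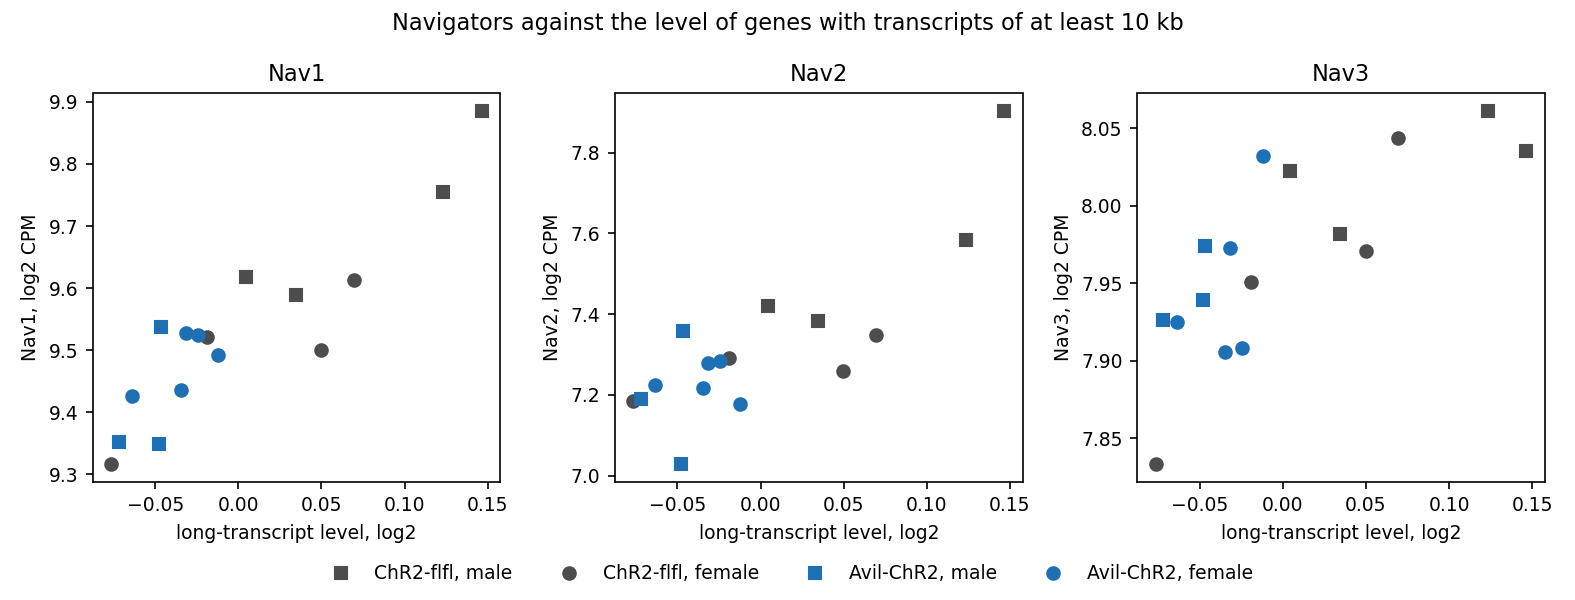
Log2 CPM of each navigator (vertical axes) against the long-transcript level of the same pup (horizontal axes, median gene-centred log2 value over 379 genes with transcripts of at least 10 kb), 1 point per pup, symbols as for the CPM plot. The highest levels, 0.15 and 0.12, belong to 2 ChR2-flfl males that are also highest for Nav1 and Nav2.

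Sex played no part in choosing the navigators and was tested. Females minus males, with genotype in the model, gave a log2 difference of -0.083 (SE 0.058) for Nav1, -0.13 (SE 0.073) for Nav2 and -0.038 (SE 0.030) for Nav3. None passed (limma adjusted p = 0.988 for each), nor did the exact two-sided permutation of sex within genotype (p = 0.243, 0.138 and 0.240). Limma called 0.0425% of genes between the sexes at an adjusted and 4.46% at an unadjusted p under 0.05, and no navigator was among them. The replicate block turned all 3 signs. It estimates sex only from replicate numbers whose pups differ in sex, and the numbers do not pair the pups, so nothing is read from this. Without ChR2-flfl replicate 1 the sex difference was -0.044 for Nav1 and -0.068 for Nav2, and without ChR2-flfl replicate 3 it was -0.016 for Nav3. Within ChR2-flfl pups it was -0.22 for Nav1, -0.30 for Nav2 and -0.076 for Nav3 (limma adjusted p = 0.744, 0.744 and 0.827), and within Avil-ChR2 pups it was 0.068, 0.044 and 0.0022 (limma adjusted p = 1.00 for each). Avil-ChR2 replicate 4 is labelled female but listed as male in an additional file of the study, and its Ddx3y value of 54.7 CPM lay in the range of the males (50.7 CPM or more).

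In these pups the genotype differences of Nav1 and Nav2 were larger in males than in females. This interaction did not pass across all genes. Among males, Nav1 averaged 841 ± 80.9 CPM in 4 ChR2-flfl pups against 683 ± 51.8 CPM in 3 Avil-ChR2 pups (SD), and each ChR2-flfl male was above each Avil-ChR2 male. Among females the corresponding values were 720 ± 60.7 CPM in 4 and 715 ± 23.7 CPM in 5 pups. Nav2 was 192 ± 33.1 and 147 ± 16.7 CPM in males, and 155 ± 7.28 and 151 ± 4.64 CPM in females of the same groups. Nav3 was 261 ± 5.95 and 247 ± 4.26 CPM in males, and 248 ± 14.8 and 247 ± 9.37 CPM in females. For Nav2 and Nav3, too, each ChR2-flfl male was above each Avil-ChR2 male. The interaction, that is the log2 genotype difference in females minus that in males, was 0.29 (SE 0.097) for Nav1, 0.34 (SE 0.12) for Nav2 and 0.078 (SE 0.060) for Nav3. By exact two-sided permutation of sex within genotype (3920 arrangements) p was 0.0153 for Nav1, 0.0286 for Nav2 and 0.221 for Nav3. Across all genes the interaction did not pass for any navigator (limma adjusted p = 0.993 for each). Limma called 0 genes for this term, or 0%, and limma voom on reads also 0; at an unadjusted p under 0.05 the share was 4.31%, or 912 genes with limma and 908 with voom, and Nav1 and Nav2 were among the genes of the limma fit. The exact p for Nav2 rose to 0.116 without Avil-ChR2 replicate 6, and it was also over 0.05 without ChR2-flfl replicate 2, 3 or 4 (0.0571, 0.0714 and 0.0643), whereas that for Nav1 stayed between 0.00136 and 0.0422. The long-transcript level went the same way, at 0.077 ± 0.068 in ChR2-flfl males, 0.0060 ± 0.067 in ChR2-flfl females, -0.055 ± 0.014 in Avil-ChR2 males and -0.033 ± 0.019 in Avil-ChR2 females (SD, n = 4, 4, 3 and 5). With that level as a covariate the interaction was 0.13 (SE 0.071) for Nav1 and 0.17 (SE 0.12) for Nav2.

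**Figure D4:**
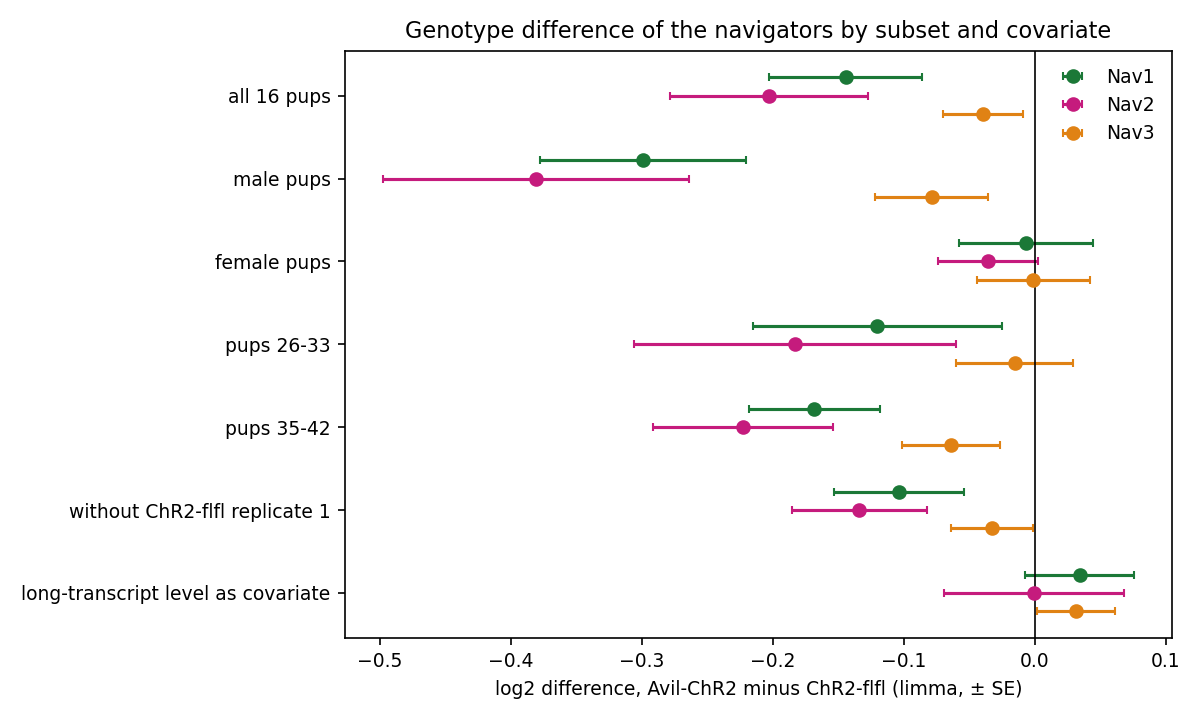
Log2 difference between Avil-ChR2 and ChR2-flfl pups (horizontal axis, limma estimate ± SE) of each navigator in all pups, within each sex, within each run of pup numbers, without ChR2-flfl replicate 1, and with the long-transcript level as a covariate. Nav1 and Nav2 are at -0.30 and -0.38 in males and at -0.0066 and -0.036 in females, and between -0.00039 and 0.035 with the covariate.

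Within both runs of pup numbers the differences kept their sign, at -0.12, -0.18 and -0.015 for Nav1, Nav2 and Nav3 in pups 26 to 33 and at -0.17, -0.22 and -0.064 in pups 35 to 42. The later against the earlier run differed by 0.064 (SE 0.057) for Nav1, 0.0045 (SE 0.077) for Nav2 and 0.055 (SE 0.028) for Nav3 on the log2 scale. Without ChR2-flfl replicate 3 the value of Nav1 was 0.025 and that of Nav3 was 0.036, and without ChR2-flfl replicate 1 that of Nav1 was 0.11. The run differences did not pass across all genes (limma adjusted p = 0.702, 0.988 and 0.440). The exact permutation p of Nav3 was 0.0498, and those of Nav1 and Nav2 were 0.362 and 0.969. Limma called 0.123% of genes between the runs at an adjusted and 12.5% at an unadjusted p under 0.05, with no navigator in either set. For the interaction of genotype and run the shares were 0% and 3.04%, that is 0 and 643 genes with limma, and voom was not run for this term. The navigator values of that interaction lay between -0.049 and -0.040 (limma adjusted p = 1.00 for each).

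Nav1 and Nav2 rose and fell together from pup to pup within genotypes. Pearson's r was 0.92 and Spearman's coefficient 0.85 over 16 pups (permutation p = 1e-05, the smallest that 100000 resamples can give, and 6e-05; adjusted over 3 pairs 3e-05 and 0.00018). Without ChR2-flfl replicates 1 and 3, the pups farthest from the median, r was 0.87, and it was 0.95 within each run of pup numbers. Nav1 and Nav3 were also related, with r = 0.76 and a Spearman coefficient of 0.64 (permutation p = 0.00337 and 0.0105, adjusted 0.00505 and 0.0158). That relation weakened to r = 0.60 without these pups, and it was 0.89 in pups 26 to 33 but 0.37 in pups 35 to 42. For Nav2 and Nav3 r was 0.52 and the Spearman coefficient 0.34, which did not pass (permutation p = 0.104 and 0.214, adjusted alike), and r was 0.33 without these pups and 0.76 and 0.17 in the runs. With the long-transcript level regressed out, r was 0.82 for Nav1 and Nav2, 0.28 for Nav1 and Nav3 and -0.12 for Nav2 and Nav3. Hence, the relation of Nav1 with Nav2 was also seen beside that level (permutation p = 0.00105, adjusted), and the relations with Nav3 were not (0.470 and 0.669). It was not particular to this pair, because genes outside the family kept values of that size (below).

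**Figure D5:**
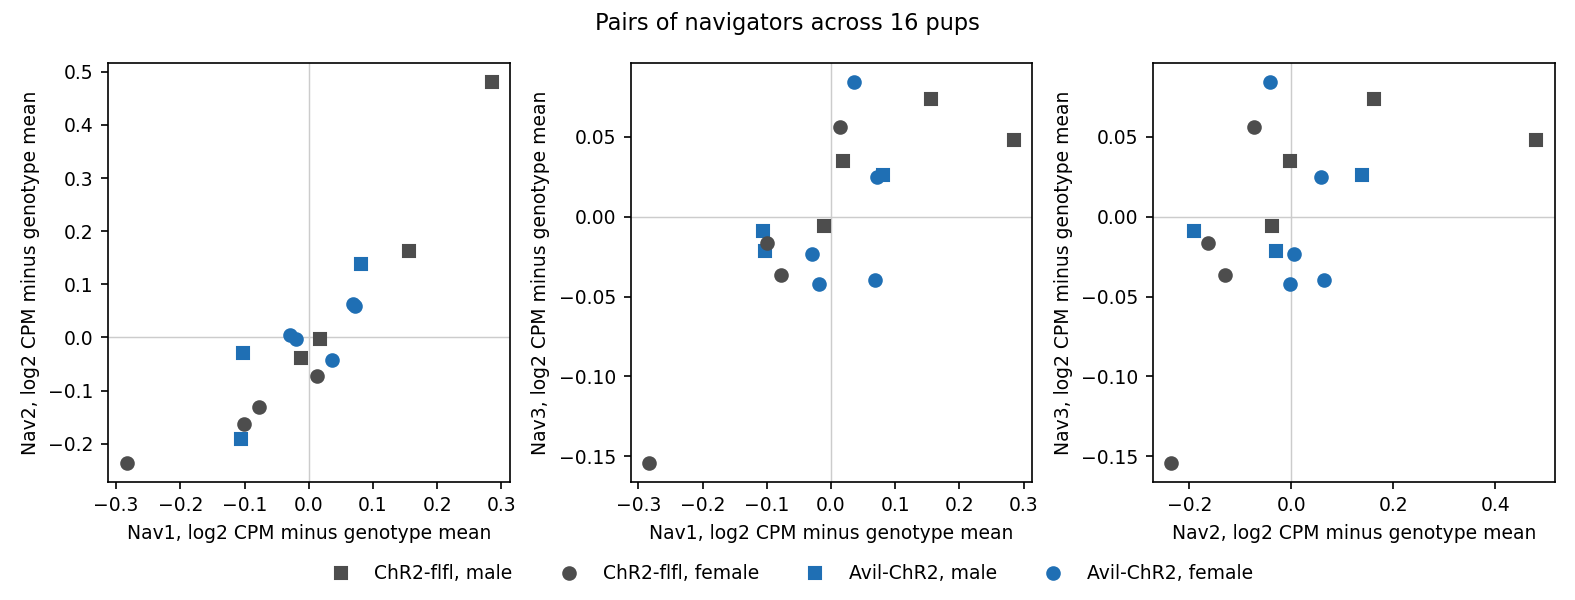
Log2 CPM minus the genotype mean for each pair of navigators across 16 pups, 1 point per pup, symbols as for the CPM plot. Nav1 and Nav2 lie along a line (r = 0.92), Nav1 and Nav3 less so (r = 0.76), and Nav2 and Nav3 scatter (r = 0.52).

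The genes most like each navigator were sought by Pearson's r of genotype-centred log2 CPM over the 16 pups, among 15134 genes. The 5 nearest to Nav1 were Vps13d, a lipid transfer protein (r = 0.97), the ubiquitin ligases Ubr4 (0.96) and Herc2 (0.96), the dynein heavy chain Dync1h1 (0.96) and the cytoskeletal linker Dst (0.96). The 5 nearest to Nav2 were Pkd1, which encodes polycystin (r = 0.97), Ubr4 (0.97), the histone methyltransferase Kmt2d (0.96), the atypical cadherin Celsr3 (0.96) and the autophagy adaptor Wdfy3 (0.95). The 5 nearest to Nav3 were less close, namely the ubiquitin ligase Ubr2 (r = 0.88), Heatr5b (0.88), the motor Myo5a (0.88), the spliceosome helicase Snrnp200 (0.88) and the RNA polymerase subunit Polr1a (0.87). Nav2 ranked 18 among the genes most like Nav1, and Nav1 ranked 22 for Nav2, whereas Nav3 ranked 218 for Nav1 and 1179 for Nav2. With the long-transcript level removed, the 5 genes nearest to Nav1 had r from 0.81 (Dst) to 0.93 (Ubr4). The 5 nearest to Nav2 had r from 0.89 (Wdfy3) to 0.96 (Pkd1), against 0.82 for Nav1 with Nav2. All 14 genes named have a longest transcript over 6 kb, which is so for 15.2% of genes with a length. Transcripts ranged from 14342 to 23279 bases for the genes near Nav1, from 11571 to 19823 for those near Nav2 and from 6388 to 11702 for those near Nav3. All 14 had a negative log2 genotype difference, from -0.24 for Kmt2d to -0.022 for Ubr2. Most genes of such length were also lower in Avil-ChR2 pups. Their share was 69.0% at 6 to 8 kb, 80.8% at 8 to 10 kb and 89.2% at 10 kb or more. The points share 16 libraries, so these likenesses are a description without a test.

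Of 6 known partners of the navigators (Trio, Abi1, Ywhae, Rac1, Rhog and Cdc42), 0 passed at either an adjusted or an unadjusted p under 0.05 (limma). The shares over all genes were 0.00944% and 5.41%, so a count of 0 among 6 partners says little about them. Their median log2 difference was 0.0034, from -0.051 (SE 0.042) for Trio, the exchange factor, to 0.024 (SE 0.020) for the GTPase Rac1. Beside the same shares over all genes, 0 of 19 microtubule plus-end and minus-end proteins passed after adjustment and 2 were lower at an unadjusted p under 0.05. These were the spectraplakins, giant linkers of microtubules and actin, Macf1, with 620 ± 89.7 CPM in ChR2-flfl and 532 ± 20.6 in Avil-ChR2 pups (SD, n = 8 each; log2 difference -0.21, limma adjusted p = 0.813), and Dst with 549 ± 70.4 and 490 ± 22.8 CPM (-0.16, limma adjusted p = 0.839). Macf1 and Dst have transcripts of 23495 and 23279 bases. The remaining plus-end proteins lay between -0.067 for Slain2 and 0.032 for Ndel1, a dynein regulator, and the median of the list was -0.015.

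Of 15 growth cone and neurite cytoskeleton genes, 0 passed after adjustment, 2 were lower and 1 was higher at an unadjusted p under 0.05. The lower ones were the microtubule-associated proteins Map1b (log2 difference -0.14, SE 0.053, limma adjusted p = 0.833), with a transcript of 11808 bases, and Map2 (-0.077, SE 0.035, limma adjusted p = 0.908), with 6258 bases. The higher one was Stmn1, a microtubule-destabilizing protein with a transcript of 1060 bases (0.045, SE 0.021, limma adjusted p = 0.911). The highest value of the list was 0.053 (SE 0.046) for the growth cone protein Basp1, and the median was -0.017. The share of all genes at an unadjusted p under 0.05 was 5.41%, as given above.

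Every list of cortical cell markers held genes that passed the filter. Over 12 marker lists the median log2 difference ranged from -0.080 for red blood cells to 0.25 for sensory neurons, the list that holds Avil. The summed level of 9 excitatory neuron markers was 1405 to 1502 CPM in ChR2-flfl and 1454 to 1578 CPM in Avil-ChR2 pups, with a median log2 difference of -0.00096. The 6 interneuron markers summed to 286 to 343 and 307 to 366 CPM (median difference 0.072), and the 6 astrocyte markers to 1424 to 1799 and 1622 to 1841 CPM (median difference 0.060). The median difference was 0.066 over 5 microglia markers and 0.24 over 4 choroid plexus markers that passed the filter. Slc17a7, the vesicular glutamate transporter of excitatory neurons, had a log2 difference of 0.11 (limma unadjusted p = 0.0304, adjusted 0.884). Ttr, made by the choroid plexus, had one of 1.33 (limma unadjusted p = 0.0491, adjusted 0.911) at means of only 0.118 and 0.319 CPM. Choroid plexus markers were near 0 in sum, with 2.89 to 7.23 CPM over all pups, and hippocampal markers summed to 61.1 to 74.2 CPM. In the microglia list P2ry12 and in the red blood cell list Alas2 were listed at 0 in every pup. Empty cells are not always absence, so this does not show that they were silent. The 5 other microglia markers passed the filter. Apart from Avil among the sensory neuron markers, no marker passed after adjustment (limma).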

How the data were processed

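RNA was measured in the cortex of 16 P7 pups. Per the labels and the study's methods, the authors prepared libraries with an Illumina TruSeq mRNA kit (stranded, per the methods), aligned reads to mm10 (GRCm38) with SeqMan NGen, counted them per gene in ArrayStar and scaled them with TMM in edgeR. The deposited values are linear TMM CPM, 1 column per pup. How reads that match more than 1 navigator were assigned is not given in the sources used here. Totals worked out from the CPM steps were 30549126 to 48711134 reads per pup, with 100% of values up to 20000 reads whole within 0.05 reads. Intervals from reads would cover counting error only.

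CPM values were log2 transformed, with a floor of -5 for empty or lower values, and genes with at least 12 of 16 values above the floor were kept (21183). Empty cells are not always absence: 28 genes had one beside a value over 5 CPM in another pup. Contrasts were fitted across all genes with limma 3.58.1 (trend, R 4.3.3), Benjamini-Hochberg adjusted, and exact or 100000-fold permutation tests (two-sided) were run with scipy 1.17.1. Sex was taken from the labels. The lengths are those of the longest GENCODE transcript (GRCm38) of the same symbol, found for 82.5% of the genes analyzed. The fits were tested on simulated data.

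Genes named are the navigators, Avil, list members past an unadjusted p of 0.05 or at a list's extremes, the 5 genes most like each navigator with a mean log2 CPM of at least 0, and overlapping entries. Slain2, Ddx3y, P2ry12 and Alas2 were added after their values were seen. The members and lists were chosen with earlier results of these data known. Alternatives were other filters, scalings and covariates, limma voom on reads, the replicate block and leaving out each pup. Count tests with edgeR or DESeq2 were not run, and limma voom on the reads worked out from the CPM steps was added in their place after seeing the data.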

Additional observations from a re-analysis of the deposited data

Results flagged for a closer look

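The genotype difference of Nav1 and of Nav2 was larger in males than in females of these pups. Nav1 and Nav2 moved together across pups (r = 0.92 within genotypes), so their interactions are not separate results. The interaction (log2 difference in females minus that in males) was 0.2923 for Nav1 and 0.345 for Nav2, at an exact permutation p of 0.0153 and 0.0286 for single genes, while neither passed across all genes (limma adjusted p = 0.993). All 4 ChR2-flfl males were above all 3 Avil-ChR2 males for Nav1 and for Nav2, but this also held for Nav3. The share of all genes separated in this way was not computed, so nothing is read from it. With the sexes of the additional file the exact p was 0.0106 for Nav1 and 0.0302 for Nav2, and the difference in the long-transcript level between the same groups went the same way. With that level as a covariate, chosen after seeing the data, the interaction was 0.13 (SE 0.071) for Nav1 and 0.17 (SE 0.12) for Nav2. Whether that level is a cause of the interaction was not tested.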

How the results depend on the processing

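The genotype differences of Nav1, Nav2 and Nav3 kept their sign under every filter, scaling, leave-one-out set and run tried. With the level of long transcripts as a covariate, chosen after seeing the data, they were 0.035, -0.00039 and 0.032, and with the slope on gene length -0.092, -0.16 and -0.0057. They were -0.30 for Nav1, -0.38 for Nav2 and -0.079 for Nav3 within male pups. Within female pups they were -0.0066 (SE 0.051), -0.036 (SE 0.038) and -0.00084 (SE 0.043). Each of these was smaller than its SE, so their sign is not read. The sex difference was -0.22, -0.30 and -0.076 for Nav1, Nav2 and Nav3 within ChR2-flfl pups. It was reversed within Avil-ChR2 pups, at 0.068, 0.044 and 0.0022. With the replicate block it was 0.076, 0.063 and 0.028, from which nothing is read because the numbers do not pair the pups. The difference of Nav2 between the runs of pup numbers was reversed with sex (-0.054), the slope of log2 values on gene length (-0.037, also for the genotype-centred slope) or the level of long transcripts (-0.061) as a covariate, and ranged from -0.031 to 0.079 when single pups were left out. The interaction of genotype and run then ranged from -0.16 to 0.032 for Nav1 and from -0.20 to 0.035 for Nav2. Causes were not tested.

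Genes called between genotypes numbered 2. There was 1 with the replicate block, the gene-length slope, the level of long transcripts, within either run or within either sex, there were 5 with the genotype-centred slope, and 1 to 2 when single pups were left out. At an unadjusted p under 0.05 there were 1145 genes, 671 with the level of long transcripts and 672 within pups 26 to 33. The relation of Nav1 and Nav3 was 0.28 and that of Nav2 and Nav3 -0.12 with that level regressed out, and the relation of Nav1 and Nav2 passed under each alternative run. Same-numbered pups did not deviate together (r from -0.344 to 0.389 over 8 numbers), so the numbers do not pair the pups, and only replicate 1 matched its own number best. The gene-length slope of values not centred by genotype, limma voom and the splits by sex and genotype were also chosen after seeing the data. The alternatives with edgeR and DESeq2 were not run. Counting error limits little here, since the fewest reads behind a navigator value were 4505. ChR2-flfl replicate 3, the pup with the fewest reads, was also lowest for Nav1, Nav3 and the long-transcript level. Whether depth plays a part in these values was not tested.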
